A study of Mus musculus and Homo sapiens with 18 samples.

Results

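Tubulin is the dimer of an alpha and a beta chain from which microtubules are built, and mammals make each chain from several genes, called isotypes. The genes described here are 10 alpha- and beta-tubulin genes, namely the alpha genes Tuba1a, Tuba1b, Tuba1c and Tuba4a and the beta genes Tubb2a, Tubb2b, Tubb3, Tubb4b, Tubb5 and Tubb6 (upper-case symbols in human, where Tubb5 is TUBB). They are 10 of 46882 gene rows in the lens table, 10 of 54838 in the table of NLPCs, lens progenitor-like cells grown from neural stem cells, and 10 of 60880 in the table of the human HLE-B3 line. The members were chosen by symbol with the deletion-against-control values of these same libraries already known, so the fold changes below describe the genes and test nothing about the family. As a share of all counts they were 0.141% to 0.157% in control and 0.0531% to 0.1% in deleted lens libraries, 0.355% to 0.405% and 0.186% to 0.301% in NLPC, and 0.552% to 0.614% and 0.6% to 0.676% in HLE-B3. All 10 passed the filter on low counts in all 3 systems.

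Microtubules grow and shrink at their ends, carry kinesin and dynein motors, and form the mitotic spindle and the cilium. In the lens, epithelial cells at the equator elongate into long fibre cells, and bundles of microtubules run lengthwise in the cortical fibres. The isotypes are closely alike and differ most at the C-terminal tail, where enzymes add or remove tyrosine, glutamate chains and other groups. Cells also adjust tubulin mRNA to the amount of free dimer: the factor TTC5 binds nascent tubulin at the ribosome and, with SCAPER and the CCR4-NOT deadenylase, triggers decay of the mRNA being translated.

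The study deleted Qk (QKI in human), which encodes the RNA-binding protein quaking, in 3 systems and sequenced RNA from 3 control and 3 deleted libraries of each. Lenses came from mice at P17-19 that had received tamoxifen at P7 and P8. Control animals (Ctrl) were littermates of genotype Nestin-CreERT2; QkL/+, and deleted animals (Qk-iCKO) were Nestin-CreERT2; QkL/L. The study's methods name littermates of other genotypes among its controls, but the labels give QkL/+ for all 3 sequenced Ctrl lenses. By the labels, both lens groups carried the inducible Cre and at least 1 floxed allele, and the Nestin promoter limits deletion to cells that use it. NLPCs were derived from neural stem cells, which by the study's methods came from newborn Nestin-CreERT2; QkL/L mice. They are labelled wild type (WT) or Qk-/-, and the methods delete Qk by adding 4-hydroxytamoxifen. Whether the WT cells received the drug or a vehicle is not stated, so drug and deletion cannot be told apart. The cells were differentiated in 2 steps, first with Noggin and then with the growth factors bFGF, BMP4 and BMP7. HLE-B3 is an immortalized human lens epithelial line, here WT or with QKI knocked out (QKI KO) by lentiviral CRISPR-Cas9 and puromycin selection. Whether the WT line received a control vector or puromycin is not stated, so these steps and the knockout cannot be told apart. The study describes its cell line replicates as independent biological ones in general terms, and the labels do not say which cultures the sequenced libraries came from.

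Total counts ran from 10319320 to 16425331 in lens, 28154202 to 68243360 in NLPC and 69190864 to 81384471 in HLE-B3 libraries. Levels are counts per 1000000 (CPM) after TMM scaling, which corrects library size for a few genes taking much of it. Qk-iCKO replicate 1 stood apart in lens, with a scaling factor of 1.48 against 0.888 to 0.962 in the other 5, and Qk-/- replicate 2 had the fewest counts in NLPC and a mean correlation with the other libraries of 0.959 against 0.979 to 0.984. Qk was 116 to 127 CPM in Ctrl and 86.7 to 106 CPM in Qk-iCKO lenses. In NLPCs it was 2440 to 2670 CPM in WT and 3070 to 3600 CPM in the libraries labelled Qk-/-, so the count was higher there. The floxed part is exon 2, and a count over the whole gene also takes reads from the exons that remain, so it cannot check that deletion. The study reports that Qki was lost in treated stem cells and NLPCs, with Qki-5 immunostaining of the stem cells and a Qki-5 immunoblot of NLPCs. In lenses it reports Qki-5 nearly gone from reporter-labelled cells of deleted animals, and Qki-6 only partly reduced. QKI was 257 to 263 CPM in WT and 100 to 105 CPM in QKI KO HLE-B3. Lens fibre markers summed to 267000 to 286000 CPM in Ctrl lenses and 141000 to 245000 CPM in Qk-iCKO, the lowest in replicate 1. The same list summed to 0.674 to 3.91 CPM over the NLPC libraries, while neural stem and glial markers summed to 4550 to 7140 CPM, so the NLPC libraries carried the transcripts of neural stem cells and hardly any of fibre cells.

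The promoters of 8 of the 10 members are held in the RefSeq table used here (mouse, GRCm38.p6); Tubb2b and Tubb6 have no entry. Those of the 3 genes with the lowest fold changes in lens and of Tuba1b, the neighbour of Tuba1a on chromosome 15, are shown because all 4 were called lower in Qk-iCKO lenses, as described further on. Each runs from 250 bases before the annotated start to 50 after it, 5′ to 3′ on the strand of the gene, at chr15:98953452-98953751 on the minus strand for Tuba1a, chr15:98934341-98934640 on the minus strand for Tuba1b, chr13:34077959-34078258 on the minus strand for Tubb2a and chr2:25224653-25224952 on the minus strand for Tubb4b. Capitals mark CCAAT boxes (CCAAT or ATTGG), GC boxes (GGGCGG or CCGCCC) and TATA boxes (TATAAA or TTTATA), searched on both strands, and no match overlapped another.
Tuba1a: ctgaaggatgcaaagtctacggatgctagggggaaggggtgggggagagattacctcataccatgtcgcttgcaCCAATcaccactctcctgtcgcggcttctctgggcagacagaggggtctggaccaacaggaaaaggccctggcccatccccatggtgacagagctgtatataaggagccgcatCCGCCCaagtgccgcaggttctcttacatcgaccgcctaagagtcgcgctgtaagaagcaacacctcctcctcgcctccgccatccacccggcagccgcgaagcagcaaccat
Tuba1b: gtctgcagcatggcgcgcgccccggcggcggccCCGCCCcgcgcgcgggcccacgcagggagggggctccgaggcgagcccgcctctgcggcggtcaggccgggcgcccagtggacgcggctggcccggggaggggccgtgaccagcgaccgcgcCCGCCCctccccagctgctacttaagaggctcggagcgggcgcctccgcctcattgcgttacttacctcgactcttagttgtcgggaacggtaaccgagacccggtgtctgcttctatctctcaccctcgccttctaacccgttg
Tubb2a: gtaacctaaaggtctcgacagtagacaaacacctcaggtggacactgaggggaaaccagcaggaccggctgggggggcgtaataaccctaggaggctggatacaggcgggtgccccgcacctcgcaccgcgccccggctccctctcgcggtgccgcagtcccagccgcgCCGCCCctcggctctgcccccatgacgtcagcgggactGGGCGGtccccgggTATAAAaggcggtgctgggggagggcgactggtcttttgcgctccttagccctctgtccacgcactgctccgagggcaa
Tubb4b: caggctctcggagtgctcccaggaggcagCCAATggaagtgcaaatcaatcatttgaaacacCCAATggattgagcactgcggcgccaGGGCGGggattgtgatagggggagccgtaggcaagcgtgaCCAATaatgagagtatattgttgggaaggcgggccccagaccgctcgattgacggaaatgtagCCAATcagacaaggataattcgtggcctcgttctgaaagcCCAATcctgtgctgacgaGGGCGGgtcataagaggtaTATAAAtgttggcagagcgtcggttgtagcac
Tubb4b held 5 CCAAT boxes, 2 GC boxes and 1 TATA box. Tubb2a held 2 GC boxes and 1 TATA box, Tuba1a 1 CCAAT box and 1 GC box, and Tuba1b 2 GC boxes. Over the 8 members, 5 held a CCAAT box, 7 a GC box and 2 a TATA box, against 37.4%, 35.7% and 13.6% of 32851 promoters of the same length. An E-box (CACGTG) was found in 1 member, Tubb5, against 7.15% of promoters, and the inner sterol element TCACCCCA, or TGGGGTGA on the other strand, was in none of the 8 and in 1.56% of all. The promoter GC content of the members was 53.7% to 72.7%, with a median of 52.7% over all promoters.

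Quaking binds RNA at a response element whose core is ACTAAC or ACTAAT. The last 500 bases of the longest protein-coding transcript held such a core in 0 of the 10 mouse members and in 2 of the 10 human members, TUBA1B and TUBB2A, against 15% of 21425 mouse and 14.7% of 19506 human transcripts. The human sites are shown with the core in capitals, read on the transcript strand of the GRCh37 annotation.
TUBA1B: aaggagaggaatACTAATtatccattcctt
TUBB2A: gaaggtatctatACTAATaaaaaagcatgt
The core began 181 bases from the transcript end in TUBA1B and 26 in TUBB2A. The longer bipartite form of the element was in 0 of the 20 windows, against 4.87% of mouse and 5.28% of human transcripts. A match is a run of letters and was not tested for binding.

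In lens, 6 of the 10 tubulin genes were called lower in Qk-iCKO than in Ctrl and 0 higher, with the fold widest for Tuba1a, the main alpha transcript. Called here means an adjusted p under 0.05 in edgeR's quasi-likelihood test over all 12201 genes tested, of which 3.88% were called lower and 8.38% higher. In 7 members all 3 Qk-iCKO libraries lay below all 3 Ctrl libraries, and in 0 members above, where 17.1% and 18.2% of all genes did so. At an unadjusted p under 0.05 the members counted 7 lower and 0 higher, and with DESeq2 6 and 0. The median log2 fold change was -0.76 over the 10 members and 0.01 over all genes. These counts belong to the contrast with which the members were chosen, and nothing is read from them. In bulk RNA, fewer cells of a type and less RNA per cell cannot be told apart.

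Tuba1a, an alpha isotype best known from the developing nervous system, lies at chr15:98949837-98953703 on the minus strand (GRCm38) and was the most abundant member. Its level was 749, 795 and 848 CPM in Ctrl replicates 1 to 3 and 209, 169 and 197 CPM in Qk-iCKO replicates 1 to 3. The groups were far apart, and the log2 fold change was -2.05 ± 0.17 (SE). Without Qk-iCKO replicate 1 it was -2.12.

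Tuba1b, a widely expressed alpha isotype next to Tuba1a on the same strand (chr15:98931425-98934565), was 63.5, 68.8 and 56.8 CPM in Ctrl and 35.1, 39.4 and 31.8 CPM in Qk-iCKO lenses. Every deleted library was below every control library, with a log2 fold change of -0.83 ± 0.15 and a call that was lost without Ctrl replicate 1 or Ctrl replicate 2. Tuba1c, the third gene of this cluster (chr15:99029891-99038110, plus strand), was 3.98 to 6.69 CPM in Ctrl and 4.34 to 5.44 CPM in Qk-iCKO. Tuba4a, on chromosome 1, encodes an alpha chain without the C-terminal tyrosine of the others, and was 3.84 to 4.97 CPM in Ctrl and 4.33 to 6.11 CPM in Qk-iCKO. For these last genes the groups overlapped, and the log2 fold changes were -0.19 ± 0.24 for Tuba1c and 0.24 ± 0.22 for Tuba4a.

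Among the beta genes, Tubb4b, a broadly expressed isotype found in ciliary axonemes, was 128, 155 and 166 CPM in Ctrl and 50.1, 44.4 and 48.6 CPM in Qk-iCKO lenses. The highest deleted library was well below the lowest control, and the log2 fold change was -1.64 ± 0.16. Tubb2a, an isotype enriched in brain, was 199, 176 and 233 CPM in Ctrl and 75.9, 85.1 and 81.8 CPM in Qk-iCKO. Again the groups were apart, at -1.32 ± 0.16. Its neighbour Tubb2b, known from the developing brain, was 33.8, 32.1 and 38.9 CPM in Ctrl and 28.0, 24.0 and 25.3 CPM in Qk-iCKO. All 3 deleted libraries were lower, but at -0.43 ± 0.14 Tubb2b was not called.

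Tubb5, the beta isotype used by most dividing cells, was 300, 314 and 290 CPM in Ctrl and 213, 148 and 152 CPM in Qk-iCKO lenses, and replicate 1 was the highest of the deleted libraries. Its log2 fold change was -0.81 ± 0.19 and was -1.01 without that library, and the call was lost without any 1 of the other 5. Tubb6, a broadly expressed beta isotype of chromosome 18, was 84.2, 84.5 and 104 CPM in Ctrl and 54.5, 56.3 and 56.6 CPM in Qk-iCKO. The groups did not overlap, and the log2 fold change was -0.70 ± 0.14, a call lost without any 1 of the Ctrl libraries or Qk-iCKO replicate 2. Tubb3, the isotype used as a marker of neurons, was near the low end in both groups, at 1.74, 2.70 and 1.71 CPM in Ctrl and 2.99, 1.83 and 2.42 CPM in Qk-iCKO, from 19 to 49 counts. These libraries overlapped, with a log2 fold change of 0.25 ± 0.32. Photoreceptor markers summed to 537 CPM in Ctrl replicate 2, where Tubb3 was the highest of the controls, and to 1.92 to 80.0 CPM in the other 5 libraries; the part of other ocular tissue in Tubb3 was not tested.

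**Figure D1:**
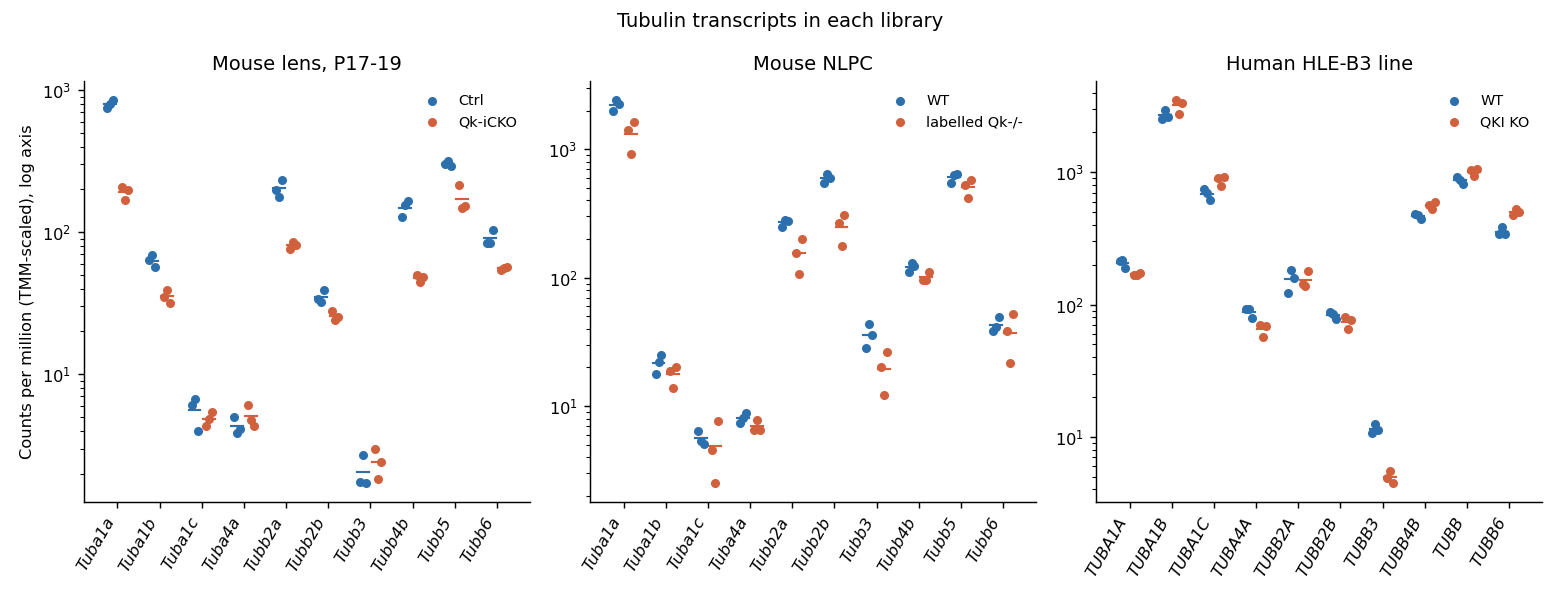
Level of each tubulin gene in every library, as TMM-scaled CPM on a log axis, with 1 panel per system (points, libraries, short lines, group means, blue, control, orange, deletion). In lens the points of Tuba1a, Tuba1b, Tubb2a, Tubb2b, Tubb4b, Tubb5 and Tubb6 do not overlap between groups.

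The isotype make-up was compared on CPM per kilobase of the longest coding transcript (CPM per kb), since only values per length can be set side by side between genes. In Ctrl lenses Tuba1a led at 442 ± 27.6 CPM per kb (SD, n = 3), followed by Tubb2a at 126 ± 18 and Tubb5 at 114 ± 4.66, which overlapped. Tubb4b (93.5 ± 12.2), Tubb6 (51.7 ± 6.44), Tuba1b (36.2 ± 3.43), Tubb2b (16 ± 1.62) and Tuba1c (2.81 ± 0.715) came next in that order, each apart from its neighbours. Tuba4a (1.52 ± 0.206) and Tubb3 (1.10 ± 0.303) came last and overlapped.

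The levels did not move in one proportion. Of the alpha transcripts, Tuba1a was 91.6 ± 1.13% in Ctrl lenses and 81.1 ± 2.84% in Qk-iCKO, and Tuba1b was 7.52 ± 0.937% and 15.6 ± 2.70% (SD, n = 3 each). Of the beta transcripts, Tubb4b was 23.2 ± 2.01% in Ctrl and 15.8 ± 0.687% in Qk-iCKO, and Tubb6 was 12.8 ± 0.643% and 16.8 ± 1.43%. The groups did not overlap in any of these 4 shares, while the share of Tubb2a, 28.1% to 33.3% in Ctrl and 23.1% to 29.3% in Qk-iCKO, did. The alpha members together were 483 ± 25 CPM per kb in Ctrl and 131 ± 9.93 in Qk-iCKO, and the beta members 402 ± 29.8 and 189 ± 13. Their alpha-to-beta ratio was 1.16 to 1.25 in Ctrl and 0.668 to 0.719 in Qk-iCKO, with no overlap. A ratio within a library does not depend on the scaling between libraries.

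Near-identical copies limit how well the counts tell isotypes apart. The limit holds also for the CPM per kb, shares and ratios of all 3 systems, which use the full transcript length. Of all 75-base windows of the mouse transcripts, 68.2% of those of Tuba1a, 71.9% of Tuba1b and 56.7% of Tuba1c also occur in transcripts of other genes, as do 43.2% of Tubb2a, 32.2% of Tubb2b and 37.8% of Tubb4b. Tuba4a, Tubb3, Tubb5 and Tubb6 shared none. With the 3 genes of the Tuba1 cluster summed to 1 value, the log2 fold change in lens was -1.90 ± 0.16, and for Tubb2a plus Tubb2b it was -1.15 ± 0.16.

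Other values moved with these levels in lens. Of 7 myeloid markers, 6 were tested and all 6 were called higher in Qk-iCKO, with the list summing to 1.74 to 3.57 CPM in Ctrl and 85 to 116 CPM in Qk-iCKO. Aif1 was listed at 0 in the 3 Ctrl libraries. Of the fibre markers, Mip, a water channel of fibre cells, was called lower, at 9800 to 11900 CPM in Ctrl and 1890 to 4950 CPM in Qk-iCKO, and it was the only 1 of 7 tested that was. Neural stem and glial markers summed to 42.2 to 54.6 CPM in Ctrl and 57.7 to 90.2 CPM in Qk-iCKO, with 1 of 5 tested called higher, Nes (log2 fold change 2.19). Sox2 (-0.0356), Gfap (0.0731), Slc1a3 (1.83) and Aqp4 (0.342) were not called. The study reports staining for Nestin and GFAP in lens epithelial cells, so Nes and Gfap are not particular to neural cells here. Neuron markers summed to 4.47 to 22.1 and 6.85 to 9.96 CPM, with 1 of 3 tested called higher. This was Gap43 (log2 fold change 4.29), scarce at 0.0686 to 0.142 CPM in Ctrl and 1.59 to 2.82 CPM in Qk-iCKO. The log2 fold changes of Snap25 (-1.4) and Syt1 (-0.763) were below 0, and neither was called. Endothelial markers summed to 3.64 to 6.92 and 10.8 to 21.6 CPM, and mesenchymal markers to 19.1 to 42.4 and 16.5 to 111 CPM. Lens epithelial markers (203 to 246 CPM in Ctrl, 222 to 244 CPM in Qk-iCKO, 0 of 5 tested called) and cycling markers (24.8 to 37.6 and 26.2 to 34.6 CPM, 0 of 6 called) overlapped between groups, and neither list had a gene at an unadjusted p under 0.05 or called by DESeq2. The part of these cells in the tubulin values was not tested. Leaving out Ctrl replicate 1 or Ctrl replicate 2 lowered the number of tubulin genes called from 6 to 3, and so did scaling by total counts alone, which moved the median of all genes by 0.29 on the log2 scale. Under that scaling the log2 fold changes of Tuba1b, Tubb5 and Tubb6 were -0.55, -0.47 and -0.41, and none of these was called, while Tuba1a, Tubb2a and Tubb4b were called in every alternative run. The groups of Tuba1b, Tubb2b, Tubb5 and Tubb6 also overlapped as shares of total counts, because Qk-iCKO replicate 1 was within or above the Ctrl range.

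The genes around tubulin were taken from 7 lists by role, with 141 genes and no member in them. The lists were chosen with earlier results of these data known, so their counts, shares and adjusted p values are a description in all 3 systems. In lens, 124 were tested, of which 10 were called lower (8.06%, against 3.88% of all genes) and 5 higher (4.03%, against 8.38%). With scaling by total counts alone 1 was lower and 3 were higher. Their median log2 fold change was -0.20. The genes called lower in Qk-iCKO included Dync1i1, an intermediate chain of the dynein motor, at 83.2 ± 4.10 CPM in Ctrl and 34.5 ± 6.23 CPM in Qk-iCKO (log2 fold change -1.27 ± 0.17 SE, edgeR adjusted p = 0.00451). Clip2, a linker at growing microtubule ends, was 27.4 ± 3.36 and 10.8 ± 2.70 CPM (-1.33 ± 0.21, edgeR adjusted p = 0.00769), while its relative Clip1 was higher, at 2.90 ± 0.450 and 7.63 ± 1.45 CPM (1.39 ± 0.23, edgeR adjusted p = 0.00915). No library of one group reached the range of the other in any of these 3 genes.

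The folding of tubulin needs prefoldin, the chaperonin CCT and the cofactors TBCA to TBCE. Of 21 folding genes tested in lens, 1 was called lower, Tbcd, the cofactor that holds beta-tubulin, at 51.7 ± 1.07 CPM in Ctrl and 28.9 ± 2.57 CPM in Qk-iCKO (-0.83 ± 0.13, edgeR adjusted p = 0.00771). None was higher, by edgeR, by DESeq2 or at an unadjusted p under 0.05. Of 16 tail-modification genes tested, 3 were lower: the glutamylases Ttll4 (-0.69 ± 0.16) and Ttll5 (-0.77 ± 0.15) and the deglutamylase Agtpbp1 (-0.60 ± 0.16). Of 34 genes of microtubule-associated proteins and stability, 3 were lower, among them Mapt, which encodes tau (-1.30 ± 0.29), and the polymerase Ckap5 (-0.78 ± 0.14), and 3 were higher, among them Map7d1 (1.07 ± 0.18). The largest fold was that of Stmn4, a stathmin that binds free dimers, at 0.312 ± 0.134 CPM in Ctrl and 3.23 ± 1.32 CPM in Qk-iCKO (3.29 ± 0.50, edgeR adjusted p = 0.00705). Stmn4 was scarce in Ctrl, at 0.166, 0.428 and 0.343 CPM in replicates 1 to 3, so this fold rests on few reads.

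Of 36 motor genes in lens, 3 were lower, the other two being the dynein chain Dync1li2 (-0.66 ± 0.13) and the dynactin subunit Dctn1 (-0.53 ± 0.14). Of 12 nucleation genes, 2 were higher, the centrosomal Pcnt (0.67 ± 0.15) and Nedd1 (0.61 ± 0.16). None was called lower by edgeR or DESeq2, and 2 were lower at an unadjusted p under 0.05. Of the 3 autoregulation genes (Ttc5, Scaper and Cnot11), 0 were called by edgeR, by DESeq2 or at an unadjusted p under 0.05. Of the 2 other tubulin genes tested, 0 were called by edgeR, and 1 was higher by DESeq2 and at an unadjusted p under 0.05. Agtpbp1, Dync1li2, Dctn1, Pcnt and Nedd1 were named after their values were seen, to account for these small counts. The 10 list genes called lower became 3 without any 1 of the Ctrl libraries and 6 without Qk-iCKO replicate 2, and were 8 without Qk-iCKO replicate 1.

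In NLPCs, 3 of the 10 tubulin genes were called lower in the libraries labelled Qk-/- and 0 higher, and the gene furthest from WT was Tubb2b rather than Tuba1a. Of the 20371 genes tested 5.96% were called lower and 4.74% higher. At an unadjusted p under 0.05 the members counted 5 lower and 0 higher, and with DESeq2 4 and 0. In 4 members all libraries labelled Qk-/- lay below all WT libraries, and in 0 above, beside 19.3% and 15.9% of all genes. All 10 fold changes were below 0, with a median log2 value of -0.26 over the members and 0.04 over all genes. As in lens, this contrast was part of how the members were chosen.

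Tubb2b was 545, 637 and 601 CPM in WT replicates 1 to 3 and 267, 177 and 307 CPM in the libraries labelled Qk-/-. The groups were apart, with a log2 fold change of -1.25 ± 0.19. Tubb2a was 249, 281 and 278 CPM in WT and 157, 106 and 201 CPM in Qk-/-, also without overlap, at -0.80 ± 0.20. Qk-/- replicate 2 was the lowest library for both genes.

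Tuba1a was again the most abundant member, at 1990, 2410 and 2240 CPM in WT and 1420, 922 and 1630 CPM in Qk-/-. No Qk-/- library reached the WT range, and the log2 fold change was -0.74 ± 0.19. Tubb3 was 28.6, 43.8 and 35.9 CPM in WT and 20.0, 12.2 and 26.3 CPM in Qk-/-. It was lower in all 3 libraries, at -0.88 ± 0.27, but was not called. Neuron markers summed to 12.5 to 18.1 CPM in WT and 31.4 to 42.2 CPM in Qk-/-. Of 7 tested, 1 was called higher, Snap25, at 0.16 to 0.496 CPM in WT and 11.8 to 18.4 CPM in Qk-/-.

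The other 6 members overlapped between the NLPC groups. Tubb5 was 548 to 637 CPM in WT and 420 to 581 CPM in Qk-/-, and Tubb4b was 110 to 129 CPM and 96.5 to 111 CPM, each with a log2 fold change of -0.25 (SE 0.13 and 0.10). Tuba1b was 17.7 to 24.8 CPM in WT and 13.9 to 20.3 CPM in Qk-/-, and Tubb6 was 38.2 to 49.6 and 21.5 to 51.9 CPM. The scarce Tuba4a (7.45 to 8.86 and 6.52 to 7.74 CPM) and Tuba1c (5.08 to 6.36 and 2.51 to 7.70 CPM) stayed below 10 CPM in every library. For Tuba1c and Tubb6 the log2 fold changes, -0.17 ± 0.36 and -0.21 ± 0.28, turned to 0.14 and 0.07 without Qk-/- replicate 2. Without Qk-/- replicate 2 or Qk-/- replicate 3, Tubb2b, Tubb2a, Tuba1a and Tubb3 were all called lower, and without any 1 WT library or Qk-/- replicate 1 the count called fell from 3 to 1.

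In WT NLPCs Tuba1a was 1230 ± 117 CPM per kb and made up 98.6 ± 0.120% of the alpha transcripts as counted, and 98.0 ± 0.205% in Qk-/-. Shared sequence was not corrected for. Among the beta genes Tubb2b led, at 272 ± 21.3 CPM per kb, followed by Tubb5 at 228 ± 18.6 and Tubb2a at 167 ± 11, with no overlap between neighbours. In Qk-/- libraries Tubb5 came first, at 192 ± 30.8, and Tubb2b (115 ± 30.6) and Tubb2a (96 ± 29.6) overlapped. As a share of the beta transcripts, Tubb2b was 34.6 ± 0.631% in WT and 22.9 ± 1.55% in Qk-/-, and Tubb5 was 29.0 ± 0.490% and 38.9 ± 2.29% (SD, n = 3 each), both without overlap. The alpha-to-beta ratio was 1.55 to 1.63 in WT and 1.36 to 1.57 in Qk-/-, so the groups overlapped.

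**Figure D2:**
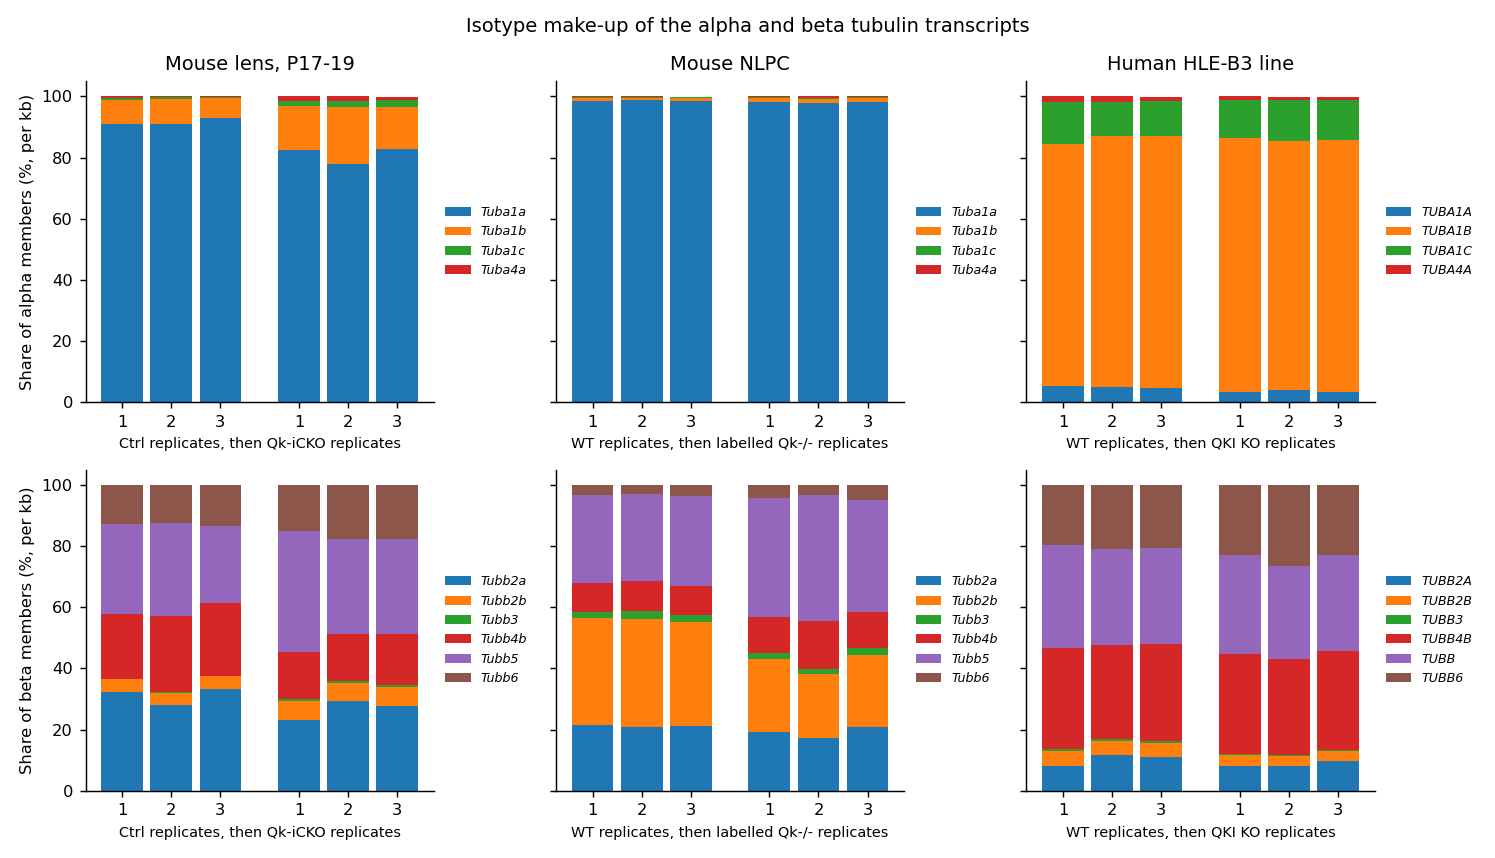
Share of each isotype among the alpha members (upper row) and beta members (lower row), in percent of the summed CPM per kb, with 1 bar per library, the 3 control replicates first and the 3 deletion replicates after them. Tuba1a makes up most alpha transcripts as counted in both mouse systems and TUBA1B in HLE-B3, and the share of Tubb2b is 34.6% in WT and 22.9% in Qk-/- NLPCs. Shares are not corrected for sequence shared between genes.

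Neural stem and glial markers moved with these levels: they summed to 6560 to 7140 CPM in WT and 4550 to 5230 CPM in Qk-/- NLPCs, with 3 of 7 tested called lower, namely Slc1a3, Gfap and Sox2, and 1 higher, Aqp4. Cycling markers summed to 885 to 983 CPM in WT and 725 to 755 CPM in Qk-/- (2 of 6 called lower). Lens epithelial markers summed to 150 to 162 CPM in WT and 110 to 123 CPM in Qk-/-, with 1 of 3 tested called lower, Pdgfra (log2 fold change -1.26). Pdgfra was 68.3 to 77.3 CPM in WT and 24.7 to 32.9 CPM in Qk-/-. The log2 fold changes of Pax6 (0.0278) and Gja1 (1.01) were above 0, and neither was called. The part of these marker groups in the tubulin values was not tested.

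Of 134 microtubule list genes tested in NLPCs, 18 were called lower (13.4%, against 5.96% of all genes) and 6 higher (4.48%, against 4.74%), with a median log2 fold change of -0.19. The motors held 6 of 36 lower and 2 higher. Dynlt3, a dynein light chain, was 199 ± 6.88 CPM in WT and 113 ± 15.6 CPM in Qk-/- (-0.82 ± 0.11, edgeR adjusted p = 0.00335), while Kif5a, a kinesin of neurons, was 18.5 ± 2.02 and 31.9 ± 1.05 CPM (0.79 ± 0.12, edgeR adjusted p = 0.00563). In both genes the libraries of the groups did not overlap.

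Of 38 stability genes in NLPCs, 6 were lower and 4 higher. Tacc1, a partner of the polymerase Ckap5, was 126 ± 4.11 CPM in WT and 64.3 ± 1.5 CPM in Qk-/- (-0.97 ± 0.08, edgeR adjusted p = 0.000475), and Fignl1, of the family of severing enzymes, had a log2 fold change of -1.04 ± 0.24. Of the genes that were higher, Dcx, the doublecortin of young neurons, was 11 ± 2.87 CPM in WT and 22.3 ± 1.04 CPM in Qk-/- (1.02 ± 0.18). Stmn3, a neuronal stathmin, was 4.69 ± 1.35 and 16 ± 5.51 CPM (1.78 ± 0.30), and Camsap3, which binds minus ends, 1.55 ± 0.334 and 4.54 ± 0.798 CPM (1.55 ± 0.29). The remaining gene called higher was Map2 (0.34 ± 0.08).

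Of 21 folding genes in NLPCs, 4 were lower, and 0 were higher by edgeR, by DESeq2 or at an unadjusted p under 0.05. The genes that were lower were Arl2, the small GTPase that works with the cofactors (47.3 ± 4.10 CPM in WT and 24.7 ± 7.15 CPM in Qk-/-, log2 fold change -0.93 ± 0.21), the cofactor Tbcb (-0.48 ± 0.11) and the prefoldin subunits Pfdn1 (-0.47 ± 0.10) and Pfdn6 (-0.45 ± 0.12). Of 22 tail-modification genes, 2 were lower, the deacetylase Sirt2 (-0.83 ± 0.16) and Vash1, which removes the C-terminal tyrosine (-1.01 ± 0.26). Of 11 nucleation genes 0 were called by edgeR, and 3 were lower by DESeq2 and at an unadjusted p under 0.05. Of 3 autoregulation genes 0 were called by edgeR, and 1 was higher by DESeq2 and at an unadjusted p under 0.05. Of 3 other tubulin genes 0 were called under any of the 3 rules. Map2, Kif5c (0.51 ± 0.10, the other motor that was higher), Tbcb, Pfdn1 and Pfdn6 were named after their values were seen. The 18 list genes called lower became 36, and the 6 called higher 11, without Qk-/- replicate 2. The count called lower was 4 to 7 without any 1 WT library or Qk-/- replicate 1, and the count called higher ranged from 0 to 4 without any 1 of the other 5 libraries.

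In HLE-B3, the members went in both directions: 3 of 10 were called lower in QKI KO and 5 higher, with log2 fold changes from -1.22 to 0.50. Of the 19049 genes tested, 16.3% were called lower and 17% higher. All QKI KO libraries lay below all WT libraries in 3 members and above them in 4, as did 22.6% and 22% of all genes. The median log2 fold change was 0.10 over the members and -0.02 over all genes, and these values too belong to the contrast behind the choice of members.

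TUBB3 was the member furthest from WT, at 10.6, 12.5 and 11.3 CPM in WT replicates 1 to 3 and 4.87, 5.47 and 4.46 CPM in QKI KO replicates 1 to 3. The groups were apart, with a log2 fold change of -1.22 ± 0.13. Of its 75-base windows 79.4% also occur in transcripts of other genes, mostly of a gene model that overlaps it and was at 0 counts in all 6 libraries, and how reads that fit both were counted is not given in the sources used here. Neuron markers summed to 22.7 to 25.2 CPM in WT and 12.3 to 15.3 CPM in QKI KO. Of these, 2 of 2 tested were called lower, SNAP25 and SYT1, while STMN2 and NEFL were at 0 in all libraries. The part of such a shift in the TUBB3 values was not tested.

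TUBA4A was 92.9, 92.9 and 78.8 CPM in WT and 69.7, 56.6 and 68.8 CPM in QKI KO, and TUBA1A was 214, 218 and 188 CPM in WT and 168, 166 and 172 CPM in QKI KO. In both genes every QKI KO library was below every WT library. The log2 fold changes were -0.44 ± 0.08 and -0.29 ± 0.06.

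Of the members that were higher, TUBB6 was 340, 385 and 342 CPM in WT and 475, 532 and 500 CPM in QKI KO, a log2 fold change of 0.50 ± 0.06 with no overlap. TUBA1C was 754, 695 and 621 CPM in WT and 909, 790 and 921 CPM in QKI KO (0.34 ± 0.07), and TUBB4B was 480, 473 and 443 CPM and 566, 526 and 593 CPM (0.27 ± 0.06). For both, the lowest QKI KO library was above the highest WT library. TUBB was 917, 882 and 819 CPM in WT and 1040, 940 and 1060 CPM in QKI KO (0.21 ± 0.06), with 940 CPM just above the WT range.

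TUBA1B, the dominant alpha gene of this line, was 2540, 2950 and 2640 CPM in WT and 3510, 2780 and 3360 CPM in QKI KO. The groups overlapped, because QKI KO replicate 2 was below WT replicate 2, and the call at 0.25 ± 0.07 was lost without QKI KO replicate 1, as that of TUBB was without QKI KO replicate 3. TUBB2A was 123 to 182 CPM in WT and 139 to 180 CPM in QKI KO, and TUBB2B was 78.0 to 87.3 and 65.8 to 80.4 CPM. Neither was called, at -0.01 ± 0.11 and -0.17 ± 0.08.

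In HLE-B3, TUBA1B was 81.3 ± 1.83% of the WT alpha transcripts and TUBA1A 5.04 ± 0.334%. The order of WT levels was TUBA1B (1660 ± 131 CPM per kb), then TUBB (301 ± 17.2) and TUBB4B (298 ± 12.5), which overlapped, then TUBA1C, TUBB6, TUBA1A with TUBB2A overlapping it, TUBB2B, TUBA4A and TUBB3 (5.79 ± 0.470). As a share of the beta transcripts, TUBB6 was 20.3 ± 0.815% in WT and 24.1 ± 2.13% in QKI KO, and TUBB2B 4.65 ± 0.203% and 3.47 ± 0.291%, neither with overlap. The alpha-to-beta ratio was 2.12 to 2.26 in WT and 1.97 to 2.34 in QKI KO. In human transcripts the share of 75-base windows also found elsewhere was 59.5% for TUBB2A, 52.1% for TUBB2B, 48.4% for TUBA1B 79.4% for TUBB3 and 25.8% or less for the others. With the TUBA1 genes summed, the log2 fold change was 0.24 ± 0.06, and with TUBB2A and TUBB2B summed it was -0.06 ± 0.08.

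The position of the human genes was checked, since cell lines can gain or lose chromosome parts. TUBB6 lies at chr18:12307668-12344319 (GRCh37), and the median log2 fold change was -0.44 over 304 tested genes of chromosome 18 but -0.00185 over its 50 nearest. For the other members, the medians of the 50 nearest genes ran from -0.10 for TUBB3 to 0.06 for TUBB4B.

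**Figure D3:**
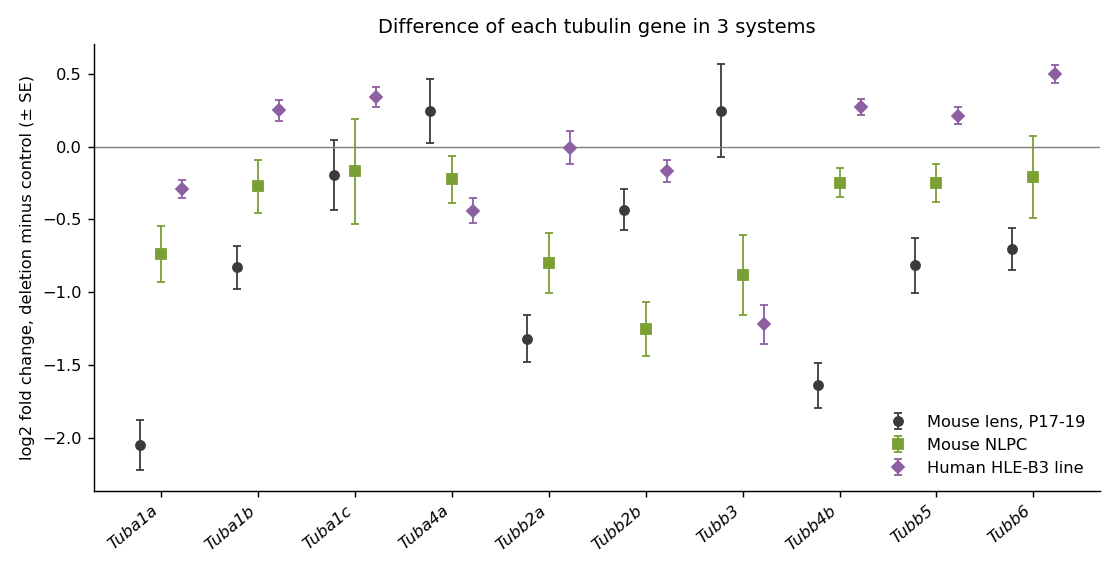
Log2 fold change of each member, deletion minus control, with its standard error, in lens (circles), NLPC (squares) and HLE-B3 (diamonds). Tubb4b, Tubb5 and Tubb6 lie below 0 in lens and above 0 in HLE-B3, and Tuba1a lies below 0 in all 3 systems.

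Of 127 microtubule list genes tested in HLE-B3, 39 were called lower (30.7%, against 16.3% of all genes) and 21 higher (16.5%, against 17%), with a median log2 fold change of -0.03. Leaving out QKI KO replicate 3 gave 25 lower. Of 21 folding genes 8 were higher, among them CCT3, a chaperonin subunit (0.46 ± 0.06), and PFDN2 (0.56 ± 0.08), PFDN4 (0.57 ± 0.10) and PFDN6 (0.41 ± 0.09) of prefoldin, while 3 were lower, TBCD (-0.51 ± 0.07), TBCEL (-0.41 ± 0.11) and PFDN1 (-0.25 ± 0.08). Of 12 nucleation genes 6 were lower, among them TUBGCP3 of the gamma-tubulin ring complex (-0.43 ± 0.07), and 1 was higher, TUBG1 (0.24 ± 0.08). Of the 3 autoregulation genes 1 was higher, CNOT11 (0.27 ± 0.08). TUBG1 was 93 to 114 CPM in WT and 111 to 133 CPM in QKI KO. CNOT11 was 35.6 to 42.7 and 42.6 to 49.6 CPM, so the groups overlapped for both genes. The genes of these 3 lists were named after their values were seen, since none was among the 10 largest folds.

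Of 33 stability genes in HLE-B3, 13 were lower and 4 higher. MAP1A, a structural protein of neuronal microtubules, was 35.2 ± 2.20 CPM in WT and 14.9 ± 0.433 CPM in QKI KO (-1.24 ± 0.08, edgeR adjusted p = 6.54e-09), and DCLK1, a doublecortin-like kinase, was 10.3 ± 0.860 and 3.71 ± 0.436 CPM (-1.48 ± 0.14, edgeR adjusted p = 6.59e-07). The end-binding genes MAPRE2 (-0.77 ± 0.08) and MAPRE3 (-0.91 ± 0.22) and the scarce MAP2 (-1.48 ± 0.49) were lower too.

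Of 19 tail-modification genes, 7 were lower and 1 higher, the latter AGTPBP1 (0.27 ± 0.08, named after its value was seen). VASH1 was 7.14 ± 1.42 CPM in WT and 2.51 ± 0.185 CPM in QKI KO (-1.51 ± 0.18, edgeR adjusted p = 5.25e-06), its relative VASH2 had a log2 fold change of -1.21 ± 0.23, and ATAT1, the enzyme that acetylates alpha-tubulin, was 13.2 ± 1.17 and 6.50 ± 0.172 CPM (-1.02 ± 0.12, edgeR adjusted p = 3.88e-06). Of 36 motors, 10 were lower and 6 higher, with the lowest folds in the neuronal kinesins KIF1A (-3.73 ± 0.65) and KIF5A (-1.71 ± 0.29). KIF1A was scarce in both groups, at 0.563, 2.12 and 0.697 CPM in WT and 0.041 to 0.109 CPM in QKI KO. Of the 3 other tubulin genes tested 0 were called by edgeR, and 1 was higher by DESeq2 and at an unadjusted p under 0.05.

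**Figure D4:**
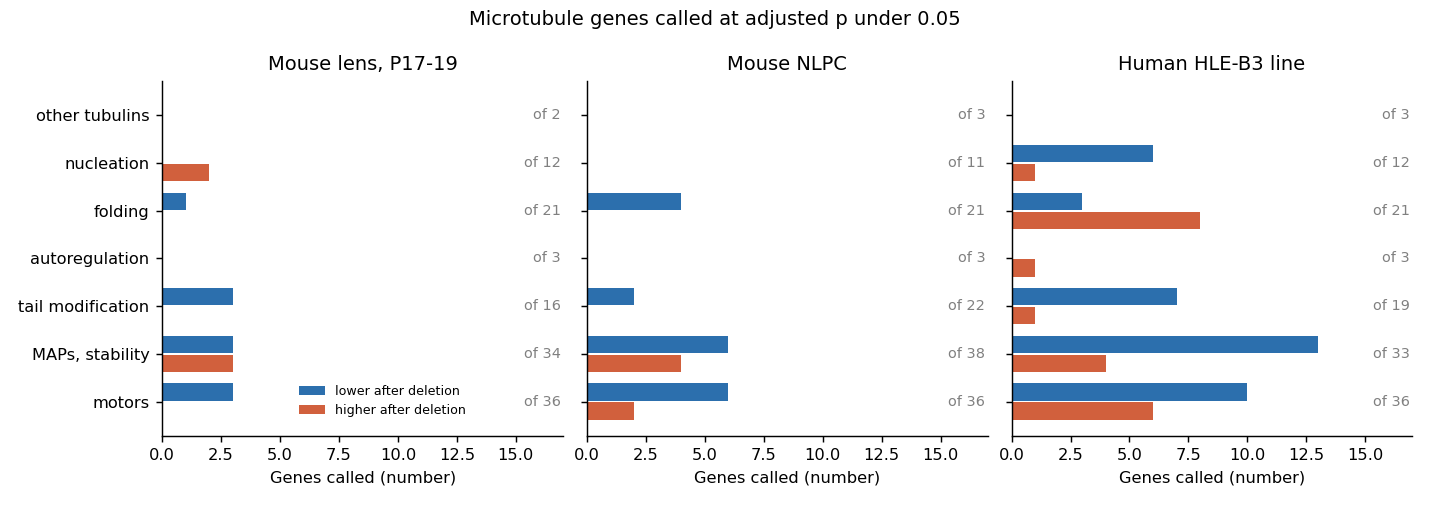
Number of genes called lower (blue) or higher (orange) after deletion in each of 7 microtubule lists, at an edgeR adjusted p under 0.05, with the number tested at the right of each panel. HLE-B3 has 8 of 21 folding genes higher, where 17% of all its genes were called higher, against 8.38% in lens and 4.74% in NLPC, which have 0 of 21 each.

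Markers of other cell types also moved in HLE-B3. Mesenchymal markers summed to 3940 to 4020 CPM in WT and 1980 to 2300 CPM in QKI KO (3 of 5 called lower, 1 higher), and lens epithelial markers to 284 to 323 and 370 to 387 CPM (2 of 5 higher). Lens fibre markers summed to 7.29 to 8.06 and 3.51 to 5.63 CPM (1 of 3 tested lower), with CRYAA at 0 throughout. Neural stem and glial markers summed to 121 to 132 and 57.5 to 61.7 CPM (2 of 3 tested lower). Cycling markers summed to 2190 to 2310 CPM in WT and 2350 to 2540 CPM in QKI KO (2 of 6 higher). The part of these in the tubulin values was not tested.

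Side by side, Tuba1a was lower than control in every deleted library of all 3 systems, at log2 fold changes of -2.05 in lens, -0.74 in NLPC and -0.29 in HLE-B3. Tubb2a was lower in both mouse systems (-1.32 and -0.80) and overlapped between groups in HLE-B3. Tubb3 was called lower in HLE-B3, was below WT in all 3 deleted NLPC libraries without being called, and overlapped in lens. No difference between systems was tested, and the 3 tables were made and scaled separately.

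Over the 12 mouse libraries scaled together, genes whose log2 CPM closely followed the mean of the 10 members, of 16675 compared, included Rnf114 (Pearson r = 0.973), Usp46 (0.968) and E330009J07Rik (0.966). Lens and NLPC libraries form separate clusters, so these values reflect the gap between systems as well. Within the 6 lens libraries r was 0.921 to 0.993 for these genes, and within the 6 NLPC libraries 0.873 to 0.965. The libraries share scaling and depth with the members, and the values are a description.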

How the data were processed

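Total RNA of 18 libraries, 3 per group, was sequenced by the submitters with a stranded kit. The authors aligned the reads to mm10 or hg19 with STAR 2.6.1b and counted reads per gene with HTSeq 0.11.0; the submitters' processing notes also name HISAT2 2.0.4 and featureCounts. The authors deposited whole-number counts that had not been normalized, 1 table per system, and how reads with several alignments were treated is not given in the sources used here. Each table was tested by itself in R 4.3.3 with edgeR 4.0.16: genes kept by filterByExpr (count minimum 10, total minimum 15), TMM scaling, quasi-likelihood fit on group alone, and Benjamini-Hochberg adjustment over all genes tested, with a threshold of 0.05. Standard errors come from the quasi-likelihood F statistic. The code was tested on simulated data.

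The members and gene lists were chosen with earlier results of these data known, and no p is given for a member. All 10 members were named, and from the lists, per system, the 10 called genes with the largest absolute log2 fold change whose groups do not overlap. Of the 5 genes most like the members across the mouse libraries, 3 are named and the others are not reported here. Where 2 human gene IDs shared a symbol in a list, the ID with more counts was used. Coordinates, lengths and sequence windows come from GENCODE M21 (GRCm38) and GENCODE 44 lifted to GRCh37, which may not be the authors' annotation; lengths are of the longest protein-coding transcript.

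The replicate numbers are shared between groups in the labels. The labels do not say that libraries of the same number are pairs. In lens, deviations from the group means correlated at 0.225, 0.103 and 0.510 for numbers 1 to 3. There, 4 of 6 libraries correlated best with their own number. These values do not settle whether the libraries are pairs, and the main fit used group alone. The fit with the replicate number as a block is among the alternatives, with DESeq2 1.42.0, other scalings and filters, and leaving out each library.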

Additional observations from a re-analysis of the deposited data

Results flagged for a closer look

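Tubb4b, Tubb5 and Tubb6 moved in opposite directions in 2 systems. In TMM-scaled CPM every deleted library lay on one side of every control library in lens and on the other in HLE-B3. For Tubb5 and Tubb6 in lens this rested on the scaling. Before it, Qk-iCKO replicate 1 held 3486 Tubb5 and 892 Tubb6 counts of 11072533, against 3622 and 1017 of 13409323 in Ctrl replicate 1. The log2 fold change of Tubb4b was -1.64 in lens and 0.271 in HLE-B3. That of Tubb5 was -0.815 in lens and 0.212 in HLE-B3, where the gene is called TUBB. That of Tubb6 was -0.701 in lens and 0.499 in HLE-B3. The differences were not tested, since the systems differ in species, tissue and table. In NLPC the groups overlapped for all 3 genes.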

How the results depend on the processing

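Counts below are of genes called at an edgeR adjusted p under 0.05 unless said. In lens, scaling by total counts alone gave 3 members lower, 1 list gene lower, 3 list genes higher and 884 genes in all, and turned the log2 fold change of Tuba1c to 0.0676. Keeping every gene with at least 1 count gave 2521 genes in all in lens and 28 list genes lower in NLPC. Asking for 10 counts in every library gave 3 list genes higher in lens and 10 in NLPC. At an unadjusted p under 0.05 lens had 21 list genes lower, 10 higher and 3498 in all, and NLPC had 5 members lower, 44 list genes lower, 13 higher and 5378 in all. DESeq2 gave 36 list genes lower, 13 higher and 3841 in all in NLPC. Leaving out 1 library at a time gave, in lens, 3 to 6 members lower, 3 to 11 list genes lower, 3 to 5 higher and 581 to 1709 genes in all. In NLPC it gave 1 to 4 members lower, 4 to 36 list genes lower, 0 to 11 higher and 681 to 3797 in all, with the highest counts without Qk-/- replicate 2, where the log2 fold changes of Tuba1c (-0.658 to 0.14 over these fits) and Tubb6 (-0.54 to 0.0683) turned above 0. In HLE-B3 it gave 3 members lower each time, 4 to 5 higher and 25 to 36 list genes lower. With the replicate block, 6 members were called lower in lens, 3 in NLPC and 3 in HLE-B3, with 5 higher there, and 1982 genes in all in lens; the block changed no call of a member. In HLE-B3, TUBB2A, near 0, turned to 0.000596 with the block, ran from -0.131 to 0.135 with 1 library left out, and was 0.135, 0.0195, 0.0449 and 0.0646 without WT replicate 2, WT replicate 3, QKI KO replicate 1 and QKI KO replicate 2. Between libraries of the same number, deviations correlated at 0.0992, 0.203 and 0.194 in NLPC and at 0.102, 0.0366 and -0.169 in HLE-B3. There, 5 of 6 NLPC and 2 of 6 HLE-B3 libraries correlated best with their own number. Whether such libraries are pairs is not given for any system. With near-identical isotypes summed, 5 values were lower in lens, 2 in NLPC and 2 in HLE-B3, where 4 were higher. Of the member fold changes under the alternatives, 115 of 130 in lens, 105 of 120 in NLPC and 112 of 120 in HLE-B3 kept their direction and their side of the threshold. The causes of these changes were not tested. Depth limits the scarce members, above all Tubb3 in lens.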
